A study of Papio anubis with 25 samples.

Results

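The genes described here mark the fat cell, or adipocyte, and were measured in salivary glands, pancreas and liver of the olive baboon (Papio anubis). They were chosen by symbol from a list of 10: the hormones ADIPOQ and LEP, the secreted serine protease CFD, the lipid-droplet proteins PLIN1, PLIN4 and CIDEC, the lipase LIPE, the fatty acid handling genes FABP4 and LPL, and the transcription factor PPARG. Of these 10 symbols, 9 were found among the 21287 genes of the expression table, and CFD was not analysed here. All 9 also passed the filter on low values, which kept 14991 genes whose mean reached 1 TPM (transcripts per 1000000) in some tissue.

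Adipocytes store triglyceride in a large lipid droplet whose surface is covered by perilipins, which hold back lipases until hormones call for release of fatty acids. They draw fatty acids from blood lipoproteins through LPL, carry them in the cytosol on FABP4, and secrete adiponectin (ADIPOQ) and leptin (LEP) into the blood. PPARG drives fat-cell differentiation and switches on much of this programme. Fat cells lie between the lobules of salivary glands and pancreas, and the parotid is known for its fatty tissue.

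The study collected parotid, submandibular and sublingual glands, pancreas and liver from 5 baboons, with 1 bulk RNA library for each tissue of each animal, 25 libraries in all. The only male was baboon 5, and the other 4 animals were female, so that sex cannot be told apart from that animal. No treatment, genotype or age is given in the labels. The salivary glands were from the left side, all tissue was flash frozen, and RNA came from a few thin sections of each biopsy. The series was designed to compare salivary glands with pancreas, and pancreas with liver, within animals. TPM values are shares of a library, and the number of reads behind each value is unknown. In bulk tissue, fewer fat cells and less RNA per fat cell cannot be told apart.

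Tissue identity was checked on marker genes. The summed level of 4 pancreatic acinar markers was at least 54982 TPM in every pancreas library, against at most 1656 TPM in the 20 others. The summed level of 4 hepatocyte markers was at least 38615 TPM in every liver library. Within the glands several libraries stood apart. AQP5, the water channel of salivary acinar cells, was at 2.25 TPM in the parotid of baboon 2, 3.64 in the parotid of baboon 5, 5.40 in the submandibular gland of baboon 2, 2.61 in the sublingual gland of baboon 2 and 3.78 in that of baboon 4, and between 40.5 and 225.7 in the other 10 gland libraries. In pancreas and liver, which lack the gene's gland role, AQP5 was between 1.98 and 4.52 TPM. The sum of 8 gland markers, AQP5 among them, did not set all the same libraries apart. It was 1543 TPM in the parotid of baboon 2 and 3556 in that of baboon 5, the median and the highest of the parotid libraries. The submandibular and sublingual libraries of baboon 2 were the lowest of their glands, at 1162 and 579 TPM. The sublingual library of baboon 4 held 3723 TPM. The sublingual library of baboon 2 held 88018 TPM of 5 skeletal muscle markers, against 8.85 to 681 TPM in the other 14 gland libraries, and those of baboons 1 and 4 held the stratified epithelium keratin KRT13 at 50365 and 12518 TPM. The parotid library of baboon 5 held 939 TPM of 5 lymphoid markers, against 2.30 to 70.0 TPM in the other 14 gland libraries. No endothelial, fibroblast, macrophage, muscle or stratified epithelium marker was at 0 in any library.

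The adipocyte genes were concentrated in 3 of the 25 libraries: the parotid of baboon 2, the submandibular gland of baboon 5 and the submandibular gland of baboon 2. The 9 genes together made up 2.30% of all transcripts in the parotid of baboon 2, 0.738% in the submandibular gland of baboon 5 and 0.294% in the submandibular gland of baboon 2. The next library, the parotid of baboon 5, held 0.0435%. Every one of the 9 genes had its highest level in the parotid of baboon 2. Among all 14988 tested genes with a value in the glands, 19.9% had their highest gland level in that library. The second highest library was the submandibular gland of baboon 5 for 8 genes, and the submandibular gland of baboon 2 for LEP.

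**Figure D1:**
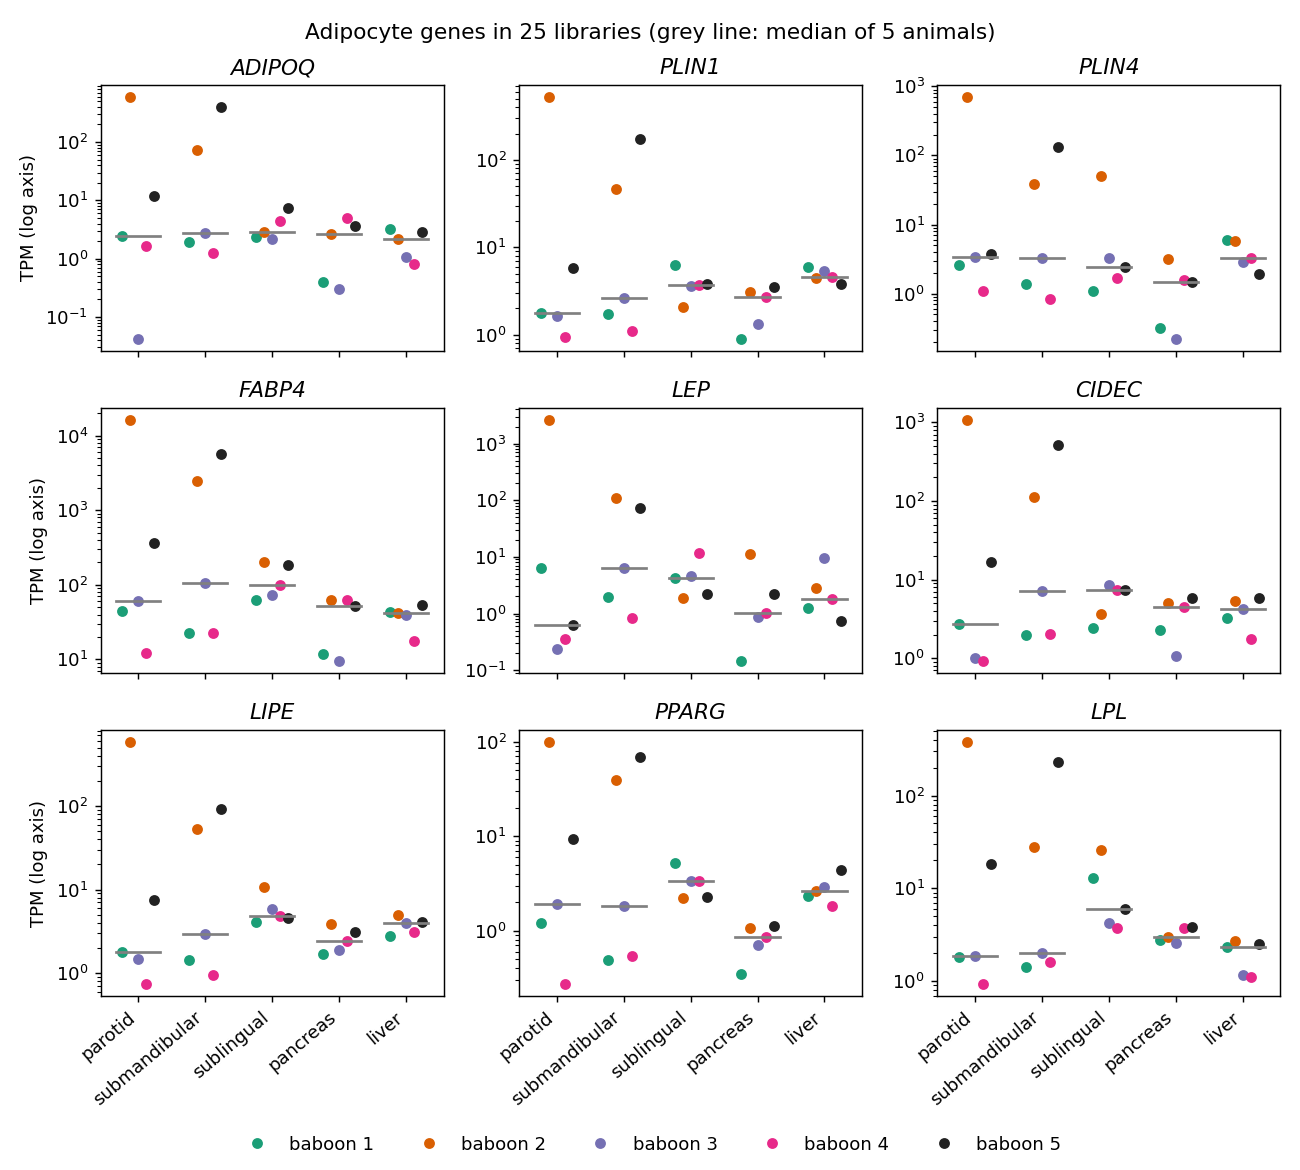
TPM (log axis) of the 9 adipocyte genes in each of the 25 libraries, by tissue; colours mark the animals and grey lines the median of 5 animals. The parotid of baboon 2 is the highest point in all 9 panels, and ADIPOQ there reaches 591 TPM against 11.9 in the next parotid library.

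Of the adipokines, ADIPOQ encodes adiponectin, a hormone that raises insulin sensitivity and is made almost only by fat cells. In the parotid it was at 2.42, 591, 0.0426, 1.63 and 11.9 TPM in baboons 1 to 5. In the submandibular gland the same animals had 1.95, 72.7, 2.76, 1.25 and 397 TPM. In the sublingual gland the values were 2.36, 2.84, 2.18, 4.41 and 7.45 TPM. A single animal thus carried the parotid level, and 2 animals carried the submandibular level. ADIPOQ in pancreas was 0.395, 2.69, 0.298, 4.96 and 3.59 TPM, and in liver 3.24, 2.20, 1.05, 0.817 and 2.90 TPM. The ranges of all 5 tissues overlapped. The parotid mean was 121 ± 263 TPM (SD, n = 5) and 4.01 ± 5.38 TPM (SD, n = 4) without baboon 2. The submandibular mean was 95.1 ± 171 TPM (SD, n = 5) and 1.99 ± 0.751 TPM (SD, n = 3) without baboons 2 and 5, against 3.85 ± 2.20 TPM in sublingual gland, 2.39 ± 2.03 in pancreas and 2.04 ± 1.08 in liver (SD, n = 5 each).

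LEP encodes leptin, the hormone that reports fat stores to the brain. Parotid levels were 6.31, 2647, 0.232, 0.353 and 0.637 TPM in baboons 1 to 5. Submandibular levels were 1.99, 111, 6.40, 0.846 and 72.5 TPM. The parotid of baboon 2 was 419.8 times the next parotid library, the widest such gap of the 9 genes. LEP was also the one gene for which the submandibular gland of baboon 2 exceeded that of baboon 5. In sublingual gland LEP was 4.26, 1.88, 4.57, 11.5 and 2.22 TPM, in pancreas 0.144, 11.0, 0.863, 1.04 and 2.22 TPM, and in liver 1.23, 2.82, 9.73, 1.79 and 0.735 TPM. Each of these 3 tissues had 1 library near 10 TPM, from a different animal each time.

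The lipid-droplet genes followed. PLIN1, the perilipin that gates lipolysis on the adipocyte droplet, was at 1.77, 525, 1.65, 0.936 and 5.85 TPM in the parotid and 1.70, 46.6, 2.63, 1.10 and 174 TPM in the submandibular gland of baboons 1 to 5. Its lowest and highest levels were 2.06 and 6.24 TPM in sublingual gland, 0.901 and 3.54 in pancreas, and 3.84 and 5.94 in liver. All 5 liver values lay above all 5 pancreas values, as they did for 32.9% of all tested genes. CIDEC, which fuses droplets into the single large one of white fat cells, reached 1085 TPM in the parotid of baboon 2, 513 in the submandibular gland of baboon 5 and 113 in that of baboon 2. Its other 22 values lay at or below 16.6 TPM, a level held by the parotid of baboon 5.

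PLIN4, a perilipin of fat and muscle that coats small new droplets, departed from the others in 1 library. Its parotid levels were 2.62, 701, 3.38, 1.08 and 3.74 TPM, and its submandibular levels were 1.39, 38.8, 3.31, 0.850 and 131 TPM. The sublingual levels were 1.08, 50.2, 3.22, 1.66 and 2.40 TPM. The sublingual library of baboon 2 thus ranked 3rd of 25, above the submandibular gland of baboon 2. That library held the skeletal muscle markers described above, with 33485 TPM of the muscle actin ACTA1, and ADIPOQ was only 2.84 TPM there. LPL at 25.6 TPM and LIPE at 10.6 TPM also had their highest sublingual level there, and so did the glucose transporter SLC2A4 at 129 TPM. SLC2A4 was named after its values were seen. The part of muscle RNA in these levels was not tested.

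Among the genes for fatty acid release and uptake, FABP4 was the most abundant of the 9 and supplied 71.3% of their summed level in the parotid of baboon 2. FABP4 encodes the fatty acid carrier of adipocytes, and endothelium and macrophages make it as well. Parotid levels were 44.4, 16426, 61.6, 12.4 and 361 TPM in baboons 1 to 5, and submandibular levels 22.3, 2432, 104, 22.5 and 5704 TPM. In the parotid of baboon 2 it was the 4th most abundant gene of the library, and in the submandibular gland of baboon 5 the 15th. Sublingual levels were 63.1, 201, 72.2, 101 and 183 TPM, pancreas levels 11.8, 63.2, 9.47, 61.9 and 52.8 TPM, and liver levels 42.9, 42.3, 39.5, 17.5 and 53.2 TPM. The lowest sublingual value was 63.1 TPM, beside a highest value of 63.2 TPM in pancreas and 53.2 TPM in liver.

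LPL, the lipase that frees fatty acids from blood lipoproteins at the vessel wall, was at 1.83, 376, 1.85, 0.937 and 18.3 TPM in the parotid and 1.41, 28.1, 2.02, 1.61 and 231 TPM in the submandibular gland. Sublingual levels were 13.0, 25.6, 4.22, 3.77 and 6.06 TPM, above the same animal's pancreas in 5 of 5 animals. LIPE, the hormone-sensitive lipase that splits stored diglyceride, was at 581 TPM in the parotid of baboon 2, 92.5 in the submandibular gland of baboon 5 and 53.3 in that of baboon 2. Its other values ran from 0.743 TPM in the parotid of baboon 4 to 10.6 TPM in the sublingual gland of baboon 2.

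PPARG, the regulator of fat-cell differentiation, had the lowest peak level of the 9. Parotid levels were 1.20, 99.1, 1.91, 0.274 and 9.43 TPM, submandibular levels 0.495, 39.9, 1.83, 0.541 and 68.4 TPM, and sublingual levels 5.25, 2.22, 3.37, 3.37 and 2.29 TPM. Pancreas levels of 0.346, 1.07, 0.714, 0.855 and 1.12 TPM lay below all 5 sublingual and all 5 liver values, the lowest of which was 1.84 TPM. Pancreas lay fully below sublingual gland for 15.6% of all tested genes and fully below liver for 32.9%. The parotid of baboon 2 was 10.5 times the next parotid library for PPARG, against 20.5 to 419.8 times for the other 8 genes.

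The 3 high libraries did not hold the genes in equal proportions. The parotid of baboon 2 exceeded the submandibular gland of baboon 5 by 1.45 times for PPARG, 1.49 times for ADIPOQ and 1.63 times for LPL, but by 5.33 times for PLIN4, 6.28 times for LIPE and 36.5 times for LEP. LEP was 4.48 times ADIPOQ in the parotid of baboon 2, 1.52 times in the submandibular gland of baboon 2 and 0.183 times in the submandibular gland of baboon 5. In the parotid of baboon 5 that ratio was 0.0533. The ratio was thus lower in both of these libraries of the male animal than in both of baboon 2, with 1 library behind each value and no test. LEP in the parotid of baboon 5 was only 0.637 TPM. Animal, sex, gland and section cannot be told apart in these 4 libraries. Low ratios were not confined to the male. In baboon 4, a female, the ratio was 0.216 in the parotid and 0.209 in the pancreas, and 0.674 to 2.61 in its other tissues.

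**Figure D2:**
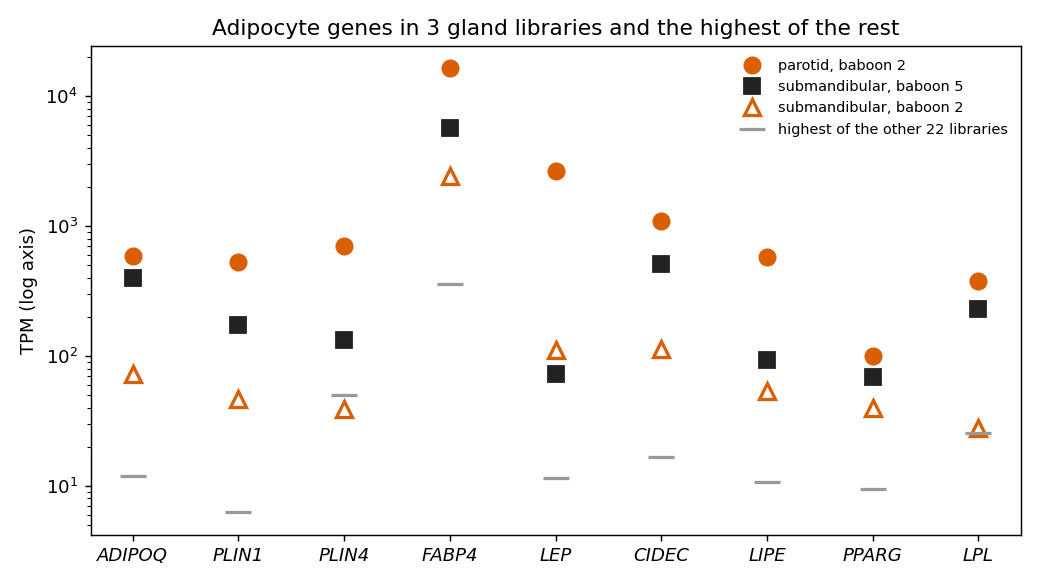
TPM (log axis) of the 9 adipocyte genes in the 3 high gland libraries, with a grey bar at the highest of the other 22 libraries. For LEP the parotid of baboon 2 (2647 TPM) stands far above the other two (111 and 72.5 TPM), whereas for PPARG the 3 libraries lie between 39.9 and 99.1 TPM.

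The makeup of a library bears on these TPM shares. The 10 most abundant genes took 18.0% of the parotid library of baboon 2, 16.2% of the submandibular library of baboon 2 and 57.9% of that of baboon 5. In the 3 parotid libraries with high AQP5 they took between 66.2% and 87.7%. After scaling by trimmed mean of M-values (TMM), which sets the bulk of genes level between libraries, ADIPOQ was 246 in the parotid of baboon 2, 348 in the submandibular gland of baboon 5 and 28.4 in that of baboon 2. The order of the top 2 libraries for ADIPOQ therefore turned with the scaling, as it did for LPL (156 against 203) and PPARG (41.2 against 60.1). LEP stayed higher in the parotid of baboon 2 after it, at 1102 against 63.7 in the submandibular gland of baboon 5.

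Other cell types differed between the 3 libraries too. In the submandibular gland of baboon 5, ADIPOQ at 397 TPM stood beside AQP5 at 61.8 TPM and the salivary protein PIP at 6822 TPM, so fat and gland genes were both abundant. In the parotid and submandibular libraries of baboon 2, AQP5 was at 2.25 and 5.40 TPM, within or near the range of pancreas and liver. PIP was at 397 and 308 TPM in that pair, and all 8 gland markers summed to 1543 and 1162 TPM. The parotid sum was the median of the parotid libraries, whereas the submandibular sum was the lowest of its gland. Both sums lay within the range of pancreas, 634 to 2954 TPM. The 5 fibroblast markers summed to 5159 and 4979 TPM in the baboon 2 libraries, 725 in the submandibular gland of baboon 5 and 26.0 to 529 TPM in the other 12 gland libraries. Most of these 3 sums was DCN, at 4001, 3658 and 575 TPM, while PDGFRA was at 4.49, 1.29 and 0.818 TPM. The 5 endothelial markers summed to 467, 378 and 101 TPM in the same order, and to 2.93 to 301 TPM in the other 12. The 5 macrophage markers were at 594, 141 and 19.9 TPM, and the other 12 libraries ran from 3.61 to 864. Most of those 3 sums was C1QA, at 470, 113 and 14.5 TPM, while MARCO was at 0.242, 0.0332 and 0.535 TPM. The part of endothelium and macrophages in the FABP4 and PPARG levels was not tested.

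**Figure D3:**
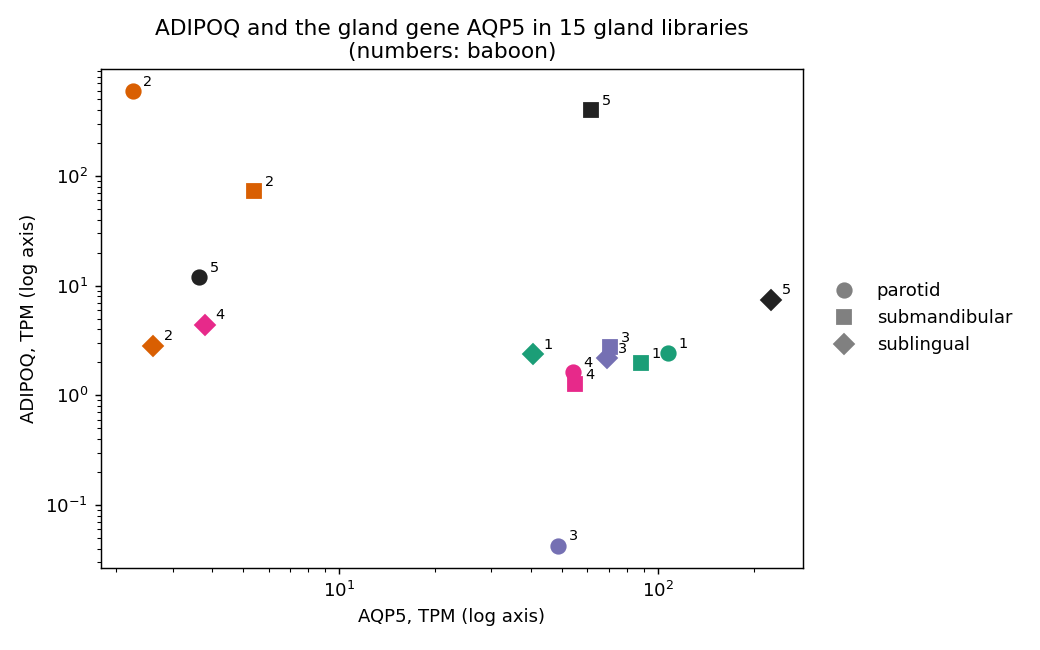
ADIPOQ against AQP5 (TPM, both axes log) in the 15 gland libraries; marker shape gives the gland and the number the animal. The parotid of baboon 2 combines 591 TPM of ADIPOQ with 2.25 of AQP5, whereas the submandibular gland of baboon 5 has 397 of ADIPOQ with 61.8 of AQP5.

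Outside the 3 libraries the genes were low, and none was at 0 in any library. In the 10 pancreas and liver libraries ADIPOQ ran from 0.0504% to 0.839% of its level in the parotid of baboon 2, with a median of 0.414%. Over the 9 genes these medians ran from 0.0569% for LEP to 1.49% for PPARG. For scale, 4 genes of pancreatic enzymes (CPA1, CPB1, CELA3B and CTRB2) were found in the 20 libraries of other tissues at medians of 0.666% to 0.824% of their pancreas mean. The references are unlike, a tissue mean for the enzymes and the single highest library for the adipocyte genes, which lowers the percentages of the latter. The part of RNA shared between libraries in the low values was not tested.

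Between tissues, the question was whether the adipocyte genes differ between salivary glands and pancreas, between pancreas and liver, between glands and liver, and between the glands. By mean, the parotid was highest for all 9 genes. By median, the sublingual gland was highest for 5 genes, the submandibular gland for 2, the parotid for 1 (PLIN4) and the liver for 1 (PLIN1), and the parotid was lowest for 5. For no gene did tissues that were neighbours in the order of medians have ranges apart from each other.

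Each comparison was fitted with limma on log2(TPM + 1) using every one of the 25 libraries and a term each for tissue and animal. A call needed an adjusted p (Benjamini-Hochberg) under 0.05 together with a log2 fold change of at least 1 in size. Fold changes on this scale understate those of low genes. None of the 9 genes was called in any of the 8 comparisons. Over all tested genes, 3.82% were called for parotid against pancreas, 4.08% for submandibular gland against pancreas, 9.47% for sublingual gland against pancreas, 17.5% for pancreas against liver and 18.2% for the mean of the 3 glands against liver. Between glands the shares were 0% for parotid against submandibular gland, 0.113% for parotid against sublingual gland and 0.0667% for submandibular against sublingual gland. The gland comparisons share their pancreas or liver libraries.

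Against pancreas, all 9 genes had positive log2 fold changes in the parotid, from 1.30 (LPL) to 2.58 (FABP4), and the median was 1.66 against 0.45 over all tested genes. Without baboon 2 the median was 0.127 against 0.223 over all genes, and without the parotid of baboon 2 and the submandibular gland of baboon 5 it was 0.272 in both. The sign of 5 of the 9 genes turned under at least 1 alternative. FABP4 was higher in the parotid of 4 of 5 animals, at 2.58 ± 1.11 (SE, log2) and a limma adjusted p of 0.222. PLIN4, also higher in 4 of 5 animals, had 2.26 ± 0.94 and an adjusted p of 0.210. ADIPOQ, higher in 3 of 5, had 1.72 ± 1.06 and an adjusted p of 0.361. LEP was higher in 2 of 5 animals only, with 1.66 ± 1.28 and an adjusted p of 0.449, and its sign turned to -0.06 without the parotid of baboon 2 and the submandibular gland of baboon 5. At an unadjusted p under 0.05, 3 of 9 genes passed, against 18.5% of all tested genes, and 0 passed without baboon 2, without baboon 3 or with no animal term. With only the parotid and pancreas libraries in the fit, FABP4 and PLIN4 were called, with the same fold changes and adjusted p of 0.0380 and 0.0279, where 2.35% of all genes were called as higher. Over all alternatives the adjusted p ran from 0.0380 to 1.00 for FABP4 and from 0.0279 to 0.859 for PLIN4.

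The submandibular gland against pancreas gave log2 fold changes from 1.34 (LPL) to 2.95 (FABP4), with a median of 2.19 against 0.17 over all tested genes. FABP4 had 2.95 ± 1.11 with a limma adjusted p of 0.195, ADIPOQ 2.39 ± 1.06 with 0.325, and LEP 2.19 ± 1.28 with 0.561. All 3 were higher in 4 of 5 animals. At an unadjusted p under 0.05, 5 of 9 genes passed, against 12.2% of all tested genes. That count was 0 without baboon 5, 0 without the 3 high libraries and 1 with no animal term. It was 7 with only submandibular gland and pancreas in the fit, where 2002 of 12618 genes passed. Without the parotids of baboons 2 and 5 it was 8, where 2302 of 14991 genes passed. Without the 3 high libraries the median was 0.295, against -0.229 over all genes, and the log2 fold changes of FABP4 and ADIPOQ were 0.91 and 0.41.

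In the sublingual gland, none of whose libraries was among the 3 high ones, all 9 log2 fold changes against pancreas were positive, from 0.55 (CIDEC) to 1.85 (FABP4). The median log2 fold change was 0.92 against 0.63 over all tested genes. LIPE and PPARG had all 5 sublingual values above all 5 pancreas values, 2 of 9 genes, against 15.6% of all tested genes. FABP4, PLIN4 and LPL were higher in 5 of 5 animals but overlapped. FABP4 had 1.85 ± 1.11 (SE, log2) with a limma adjusted p of 0.241, PPARG 1.21 ± 0.82 with 0.295 and ADIPOQ 0.67 ± 1.06 with 0.655. None of the 9 genes passed at an unadjusted p under 0.05, against 31% of all tested genes. The gene-wise spread of the fit came from all 5 tissues, the 3 high libraries included. Without those 3 libraries the adjusted p was 0.0398 for FABP4 and 0.0348 for PPARG at the same fold changes, and both were called, 2 of 9 genes against 15% of all genes called as higher. That alternative was chosen after the data were seen, for the high levels of these same genes. Leaving those libraries out lowers the members' spread in the fit, so these calls are no independent support. With only sublingual gland and pancreas in the fit, FABP4 alone was called, at 0.0349, where 7.35% of all genes were called as higher. Over all alternatives the adjusted p ran from 0.0349 to 0.471 for FABP4 and from 0.0348 to 0.541 for PPARG.

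Pancreas against liver gave a median log2 fold change of -0.28, against -0.44 over all tested genes. PLIN1 and PPARG were lower in pancreas with no overlap, 2 of 9 genes, against 32.9% of all tested genes. PLIN1 had -0.89 ± 1.03 (SE, log2) with a limma adjusted p of 0.630, PPARG -1.06 ± 0.82 with 0.437 and PLIN4 -1.14 ± 0.94 with 0.467. These 3 genes and LIPE were lower in the pancreas of 5 of 5 animals, and LPL was higher in 5 of 5. No gene passed at an unadjusted p under 0.05, against 28.9% of all tested genes. These shares are not on an equal footing. The members' spread in this fit came from all 5 tissues, the 3 high gland libraries included. With only pancreas and liver in the fit, 5 of 9 passed, where 9071 of 12453 genes did. With only pancreas and liver in the fit, PPARG and PLIN4 were called as lower, with adjusted p of 0.000554 and 0.0100, where 29.6% of all genes were called as lower. Over all alternatives their adjusted p ran from 0.000554 to 0.631 and from 0.0100 to 0.730.

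For the mean of the 3 glands against liver the median log2 fold change was 1.29, against -0.003 over all tested genes. It was 0.459 without baboon 2 and 0.021 without the 3 high libraries, where the median over all genes was -0.14 and -0.226. FABP4 had 2.18 ± 0.90 (SE) with a limma adjusted p of 0.0956 and was higher in 4 of 5 animals, and LPL had 1.79 ± 0.76 with 0.104 and was higher in 5 of 5. At an unadjusted p under 0.05, 2 of 9 genes passed, against 31.3% of all tested genes, and 0 passed without baboon 2, without baboon 5 or with no animal term. After TMM scaling both genes were called, FABP4 at 2.38 with an adjusted p of 0.0208 and LPL at 1.83 with 0.0414, and 8.07% of all genes were then called as higher against 5% without scaling and 8.08% with median-of-ratios scaling. Over all alternatives the adjusted p ran from 0.0195 to 0.259 for FABP4 and from 0.0398 to 0.247 for LPL. Between glands, log2 fold changes ran from -0.80 to 0.02 for parotid against submandibular gland, from 0.16 to 1.05 for parotid against sublingual gland and from 0.19 to 1.73 for submandibular against sublingual gland. No gene passed at an unadjusted p under 0.05 in these 3 comparisons, in which 1.69%, 9.13% and 14.1% of all tested genes did. All 27 of these values between glands changed sign under at least 1 of the 17 alternatives run.

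**Figure D4:**
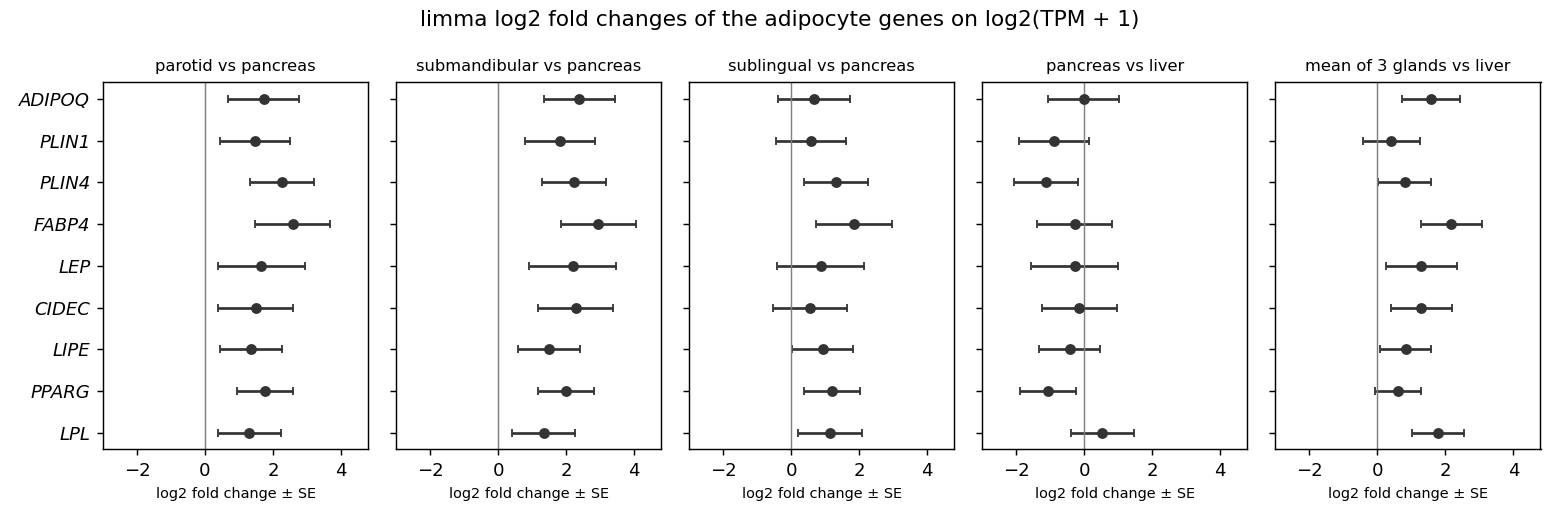
limma log2 fold changes (points) with standard errors (bars) of the 9 adipocyte genes in 5 comparisons, on log2(TPM + 1) with animal as a term. Points for parotid and submandibular gland against pancreas lie between 1.30 and 2.95 and none of the 9 genes was called.

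The wider biology of fat cells was read from 7 lists holding 75 tested genes that are not among the 9. For parotid against pancreas 2 of the 75 were called as higher and 0 as lower, and for submandibular gland against pancreas 1 and 2. These are 2.67% and 4% of the list genes, against 3.82% and 4.08% of all tested genes. The shared gene was SLC27A1, a fatty acid transporter of the cell surface, higher by 1.67 ± 0.38 log2 units (SE, limma adjusted p = 0.00933) in parotid and 1.82 ± 0.38 (adjusted p = 0.00437) in submandibular gland. SLC27A1 was at 8.12, 21.7, 19.1, 5.70 and 7.49 TPM in the parotid, 15.9, 8.26, 10.8, 7.95 and 22.5 TPM in the submandibular gland and 2.44 to 3.15 TPM in pancreas. Its highest levels were also in the parotid of baboon 2 and the submandibular gland of baboon 5, but every value of both glands exceeded every pancreas value. Such a separation held for 2.92% of all tested genes in parotid and 4.3% in submandibular gland. The parotid call ended in 5 of 17 alternatives: both scalings, the fit of only the 2 tissues, and leaving out baboon 1 or baboon 3. The submandibular call ended without baboon 1, at an adjusted p of 0.0682.

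For sublingual gland against pancreas 7 of 75 list genes were called as higher and 0 as lower, which is 9.33% against 9.47% of all tested genes called in either direction. The lipolysis genes MGLL, which splits monoglyceride, and ABHD5, the activator of the first lipase, rose by 3.40 ± 0.70 and 3.23 ± 0.78 log2 units (SE, limma adjusted p = 0.00308 and 0.0113). MGLL was at 262, 20.6, 42.8, 242 and 25.3 TPM in the sublingual gland of baboons 1 to 5, and ABHD5 at 86.9, 3.88, 4.28, 113 and 5.80 TPM. Both were highest in the sublingual libraries of baboons 1 and 4, which held the keratin KRT13 at 50365 and 12518 TPM and ADIPOQ at 2.36 and 4.41 TPM. The 4 stratified epithelium markers summed to at least 21311 TPM in those libraries and to at most 352 in the other 3 sublingual ones. The part of stratified epithelium in these levels was not tested. Without baboon 1 neither was called, with an adjusted p of 0.0551 for MGLL, and ABHD5 was not called without baboon 4 either.

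Against liver, many of the list genes were lower in the other tissues, while none of the 9 members was called in the fit of all 25 libraries. The part of hepatocytes in the liver levels of the list genes was not tested. In pancreas 32 of 75 list genes were called as lower than in liver and 0 as higher, among them 10 of 16 triglyceride synthesis genes and 6 of 9 transcription factors tested. Over all tested genes 14.6% were called as lower and 2.86% as higher. PCK1, which feeds glycerol and glucose synthesis, fell by 6.24 log2 units (SE 0.64, limma adjusted p = 4.35e-08) and DGAT2, the final enzyme of triglyceride synthesis, by 4.98 (SE 1.23, adjusted p = 0.00499). For the mean of the 3 glands against liver 6 of 75 were called as higher and 27 as lower, against 5% and 13.2% of all tested genes. CAVIN1, a caveolar coat protein of fat, endothelial and muscle cells, had a log2 fold change of 2.91 ± 0.60 (limma adjusted p = 0.000843), and the fatty acid carrier FABP5 had 2.91 ± 0.74 (adjusted p = 0.00551). CAVIN1 was at 489 and 368 TPM in the parotid and submandibular gland of baboon 2. Between glands 0 of the 75 were called, and over all lists the median fold changes against pancreas were 0.79, 0.69 and 0.70 in parotid, submandibular and sublingual gland, against 0.45, 0.17 and 0.63 over all tested genes.

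The genes whose pattern was most like ADIPOQ over the 25 libraries, by Pearson r of log2(TPM + 1), were SLC7A10 (0.967), LVRN (0.944), TSHR (0.939), C7H14orf180 (0.934), HCAR1 (0.930), LHX8 (0.928), AVPR2 (0.927) and TRARG1 (0.926). SLC7A10, an amino acid transporter, was at 32.1, 5.92 and 21.0 TPM in the parotid of baboon 2, the submandibular gland of baboon 2 and that of baboon 5, and at most 1.18 TPM in the other 22 libraries. HCAR1, the lactate receptor through which fat cells slow lipolysis, was at 7.12, 2.29 and 2.35 TPM in the same libraries, and TSHR, the thyrotropin receptor, at 9.85, 3.97 and 3.82 TPM. Among the members r with ADIPOQ ran from 0.850 for LEP to 0.976 for CIDEC. The points share libraries, animals and TPM composition. Without the 3 high libraries r with ADIPOQ ran from 0.215 (LEP) to 0.802 (CIDEC) among the members, and the median over the 8 named genes went from 0.932 to 0.574.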

How the data were processed

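Bulk RNA-seq of 25 libraries (5 tissues of 5 olive baboons) was deposited as 1 table of TPM (transcripts per 1000000) per gene, made by the authors with kallisto. Per the submitters' processing notes, FastQC, MultiQC, cutadapt, HISAT2, kallisto, SAMtools, featureCounts and DESeq2 were also in use. Their versions, the genome build and the transcript index are not given in the sources used here, so no coordinates or sequences are printed. The deposited TPM columns sum to 999999.5 to 1000000.6, so depth is unknown, and no counting interval can be given. TPM is a share: a library filled by a few secretory genes shows lower TPM for all others. Transcripts of near-identical genes may have been split by the authors' quantification.

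Genes were matched by symbol. RefSeq names (assembly Panubis1.0) matched all 21287 identifiers. Each comparison was fitted with limma 3.58.1 (R 4.3.3; lmFit, eBayes with trend) on log2(TPM + 1) over 14991 genes (tissue mean of 1 TPM or more somewhere), with animal as a block, and Benjamini-Hochberg adjustment over all genes. The script was tested on simulated data. Alternatives were a pseudocount of 0.1, other filters (none, or at least 5 TPM), TMM (computed directly, trimming 30% of M and 5% of A values) and median-of-ratios scaling, no fold threshold, no block, only the tissues compared, and leaving out animals or libraries. Animal numbers in the labels pair the libraries. Deviations from tissue means correlated at a mean r of 0.161 between libraries of 1 animal (50 pairs) and -0.035 between animals (200 pairs). Figures were drawn with matplotlib 3.10.9.

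The members and lists were chosen with earlier results of these data known. Beyond the members, genes are named by 3 rules: the 8 with a gene symbol and the highest r with ADIPOQ, up to 3 called genes of each list and comparison with the largest change, and markers of other cell types. Any other gene is named as chosen after its values were seen.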

Additional observations from a re-analysis of the deposited data

Results flagged for a closer look

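Each of the 9 genes was looked at in each tissue for 1 library lying far from the other 4, by Dixon's ratio of gap to range above 0.71. This picked out 18 of 45 groups, 9 of them from 1 library. Chance flags about 1 in 20 groups of normally distributed values, but TPM values are skewed: over all tested genes and the 5 tissues, 20.2% of groups were picked out. No cause was tested for any of them.

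The parotid of baboon 2 lay far above the other 4 parotid libraries for all 9 genes: ADIPOQ at 591 TPM, PLIN1 at 525, PLIN4 at 701, FABP4 at 16426, LEP at 2647, CIDEC at 1085, LIPE at 581, PPARG at 99.1 and LPL at 376. That library lay as far above the others for 1497 of 14968 tested genes. The submandibular gland of baboon 5 lay far above the other 4 for 4 genes: ADIPOQ at 397 TPM, PLIN1 at 174, CIDEC at 513 and LPL at 231, as it did for 1.99% of all tested genes. The submandibular gland of baboon 2 was second to that of baboon 5 for every gene but LEP, and the ratio can pick out only the most extreme library. For LEP it was the highest, with that of baboon 5 next. The lack of a flag there thus says nothing of its levels. They were 11.7 to 26.4 times the highest submandibular library outside baboons 2 and 5. Over all tested genes that library was picked out for 39.1%.

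In the sublingual gland the muscle-rich library of baboon 2 lay far above the rest for PLIN4 at 50.2 TPM and LIPE at 10.6 TPM. LEP gave the remaining 3: the sublingual gland of baboon 4 at 11.5 TPM, the pancreas of baboon 2 at 11.0 TPM and the liver of baboon 3 at 9.73 TPM. LEP was 4.10 times ADIPOQ in the pancreas of baboon 2, beside 4.48 in the parotid, 1.52 in the submandibular gland, 0.663 in the sublingual gland and 1.28 in the liver of the same animal. The liver of baboon 3 had a ratio of 9.25 while the parotid of baboon 3 held 0.232 TPM of LEP.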

How the results depend on the processing

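Counts of called members moved from 0 in 6 places. With the fit limited to the tissues compared, 2 members were called for parotid against pancreas, 1 for sublingual gland against pancreas and 2 for pancreas against liver. For the mean of the 3 glands against liver, 2 were called under TMM and 2 under median-of-ratios scaling, FABP4 and LPL each time. Without the 3 high libraries, an alternative chosen after seeing the data, 2 were called for sublingual gland against pancreas. With no replicate block 0 members were called in all 8 comparisons, and the other alternatives gave 0 as well, leaving out each animal (0 to 0) included. LEP in parotid against pancreas reversed to -0.06 without the parotid of baboon 2 and the submandibular gland of baboon 5, and to -0.28 without all 3 high libraries. Of the 72 member values, 46 changed sign under at least 1 alternative. The median r with ADIPOQ of 0.932 became 0.859 with a pseudocount of 0.1, 0.815 without the parotid of baboon 2 and the submandibular gland of baboon 5, 0.574 without the 3 libraries, and 0.897 to 0.949 when each animal was left out; the lowest was without baboon 2. Of the 8 like genes, 6, 2 and 1 were kept in the first 3 settings. TMM scaling moved the median log2 fold change of all genes from 0.45 to 0.075 for parotid, from 0.17 to 0.034 for submandibular and from 0.63 to 0.11 for sublingual gland against pancreas, and from -0.44 to -0.018 for pancreas against liver. Calls over all genes went from 1045 higher and 374 lower to 626 and 995 for sublingual gland against pancreas, from 428 and 2195 to 1084 and 1658 for pancreas against liver, and from 749 and 1978 to 1210 and 1873 for the glands against liver. The cause of these changes was not tested. Depth is unknown, so how far it limits the low values is unknown too.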

Other observations

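Of the 7 listed genes of brown fat, which burns fatty acids for heat, 3 passed the filter on low values. Among these 3, 0 had their highest gland level in the parotid of baboon 2 and 1 in the submandibular gland of baboon 5. Over all tested genes 19.9% and 0.554% did. Levels are given here for UCP1 and CIDEA only, which differed. UCP1, the uncoupling protein that defines brown fat, was at 0.216 TPM in the parotid of baboon 2, 0.462 in the submandibular gland of baboon 2 and 0 in that of baboon 5. Its highest value in the 25 libraries was 0.462 TPM. CIDEA, a droplet protein of brown fat that other lipid-storing cells also make, was at 522 TPM in the parotid of baboon 2, 97.6 in the submandibular gland of baboon 2 and 602 in that of baboon 5. CIDEA was also at 195 TPM in the sublingual gland of baboon 1 and 164 in that of baboon 4, with ADIPOQ at 2.36 and 4.41 TPM there. ADIRF, a gene named for its role in fat-cell differentiation, was at 12396 and 12150 TPM in that pair and at 5201 TPM in the parotid of baboon 2. UCP1, CIDEA and ADIRF were named after their values were seen.

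Of the triglyceride synthesis genes, GPD1, which makes glycerol phosphate, was at 1307 TPM in the parotid of baboon 2, 796 in the submandibular gland of baboon 5 and 128 in that of baboon 2. DGAT2 was at 497, 529 and 60.9 TPM in the same libraries. PNPLA2, the first lipase of triglyceride breakdown, belongs to the lipid droplet and lipolysis list instead and was at 657, 566 and 89.8 TPM. Of the 12 tested genes of that list, 5 had their highest gland level in the parotid of baboon 2. The submandibular gland of baboon 5 was highest for 1, and the sublingual glands of baboons 1, 2 and 4 for 3, 1 and 2. Of 16 synthesis genes, 10 had their highest gland level in the parotid of baboon 2 and 3 in the submandibular gland of baboon 5, where 19.9% and 0.554% of all tested genes did. GPD1 and PNPLA2 were named after their values were seen.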
